A study of Homo sapiens with 31 samples.

Results

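Cells make cholesterol and fatty acids from the same starting material, acetyl-CoA. The cholesterol route first builds mevalonate and from it the branched units that are joined to squalene, then closes squalene to lanosterol and trims this ring in many steps to cholesterol. The fatty acid route carboxylates acetyl-CoA, builds palmitate, and then lengthens and desaturates it. Most of these enzymes are known targets of the SREBP transcription factors, which are held in the endoplasmic reticulum by SCAP and the INSIG proteins when sterols are plentiful and are released to the nucleus when sterols run low.

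Described here are 32 genes of this system, taken by symbol from the 19221 genes of the deposited table. They are 7 genes of the mevalonate steps, 11 of the squalene and sterol steps, 6 of the SREBP system with a sterol transfer protein, and 8 of fatty acid synthesis and desaturation. All 32 were in the table and all 32 passed the filter on low values in every comparison.

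The study sequenced mRNA of cell lines that it used as models of ovarian cancer, in 4 groups and 31 libraries in all. The lines were grown in RPMI-1640 with 10% fetal bovine serum. The paper's discussion questions the use of C13* because of its origin. It also says that A2780 was reported as an unlikely line of high-grade serous ovarian cancer. A2780 (n = 8 libraries) is the parent line, and A2780 OlaR (n = 8) is a strain raised from it under rising exposure to olaparib, an inhibitor of the DNA repair enzyme PARP. C13* is a cisplatin-resistant line proficient in homologous recombination, and it carried either a control shRNA (C13* shCON, n = 7) or a lentiviral shRNA against CEBPB, the gene of the transcription factor C/EBPβ (C13* shCEBPB, n = 8). A single resistant strain and 1 knockdown line stand for their conditions, and the study's methods call the replicates biological but neither they nor the labels say whether these were separate cultures, so the p-values measure only the spread between these libraries. The values are FPKM, in which the fragments of a gene are divided by gene length and library size, so levels can be set side by side between genes. Between groups they depend in part on the scaling, as FPKM summed to 417556 to 454578 per library.

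The labels were checked before the genes were compared, and 2 groups of different labelled lines had nearly the same profile. The library codes begin with C for A2780 OlaR, CS for C13* shCON, O for A2780 and R for C13* shCEBPB. What these letters stand for is not given in the sources used here. A2780 OlaR and C13* shCON differed by at least 2-fold in 69 of 12967 genes (0.532%), while A2780 OlaR differed from its parent A2780 in 34.8% and C13* shCEBPB from C13* shCON in 27.6% of these genes. The 8 epithelial and squamous markers summed to 4245 to 5126 FPKM in A2780 OlaR and 3812 to 4325 FPKM in C13* shCON, against 85.1 to 93.5 FPKM in A2780 and 1263 to 1514 FPKM in C13* shCEBPB. All 8 were called higher in A2780 OlaR than in A2780, while in C13* shCEBPB against C13* shCON 6 were lower and 2, KRT8 and KRT18, were higher. These 2 keratins of simple epithelia averaged 882 and 535 FPKM in C13* shCEBPB, against 459 and 320 FPKM in C13* shCON, and made up 99.9% of the sum in every C13* shCEBPB library. KRT5, a keratin of squamous cells, was listed at 0 in every A2780 library and reached at most 0.0416 FPKM in C13* shCEBPB. The 4 mesenchymal markers summed to 857 to 898 FPKM in A2780, 24.5 to 28.9 in A2780 OlaR, 32.7 to 38.0 in C13* shCON and 349 to 377 in C13* shCEBPB. VIM, an intermediate filament protein, made up 91.2 to 92.0% of this sum in A2780 and 92.8 to 95.4% in C13* shCEBPB. Other members went against it, as FN1 averaged 0.524 FPKM in A2780 and 7.70 in A2780 OlaR, and CDH2 averaged 17.3 FPKM in C13* shCON and 7.56 in C13* shCEBPB. In all, 1 of the 4 was higher and 3 lower in A2780 OlaR, and 2 were higher and 2 lower in C13* shCEBPB. Of the 3 ovarian and Müllerian markers, PAX8 averaged 6.0 FPKM in A2780 OlaR and 6.10 in C13* shCON but 0.555 in A2780 and 0.536 in C13* shCEBPB, and WT1 and MUC16 stayed at or under 1.23 FPKM in all libraries. The 8 markers of other cell types summed to 95.6 to 118 FPKM in A2780, of which PTPRC, a leukocyte marker, made up 75.7 to 103 FPKM, and to 3.53 to 20.2 FPKM in the other groups. In both comparisons of the study, the labelled condition and this difference between cell profiles cannot be told apart. CEBPB itself averaged 85.8 ± 9.93 FPKM (SD, n = 7) in C13* shCON and 47.1 ± 9.05 FPKM (SD, n = 8) in C13* shCEBPB, with no overlap between libraries. It averaged 99.7 FPKM in A2780 and 112 FPKM in A2780 OlaR. In such bulk RNA, fewer cells of a type and less RNA per cell cannot be told apart.

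Stretches of 5 promoters are shown because their genes carry the largest differences described below, or, for SREBF2, because it was the single one of the 28 genes with a RefSeq promoter that held the sterol regulatory element, the motif that SREBPs are known to bind. Positions are on GRCh38.p14, each sequence reads 5′ to 3′ on the strand of its gene, and capitals mark the named motif on either strand. The SREBF2 stretch at chr22:41832932-41833020 (plus strand) holds the sterol regulatory element, that of TM7SF2 at chr11:65111758-65111842 (plus strand) and that of SCD at chr10:100346983-100347091 (plus strand) hold the CCAAT box of the factor NF-Y, and those of ELOVL6 at chr4:110198692-110198777 (minus strand) and FADS1 at chr11:61817163-61817253 (minus strand) hold the GC box.
SREBF2: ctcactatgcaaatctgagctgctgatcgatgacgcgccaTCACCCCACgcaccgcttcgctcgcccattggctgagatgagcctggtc
TM7SF2: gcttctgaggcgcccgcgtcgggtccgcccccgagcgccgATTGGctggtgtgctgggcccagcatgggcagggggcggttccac
SCD: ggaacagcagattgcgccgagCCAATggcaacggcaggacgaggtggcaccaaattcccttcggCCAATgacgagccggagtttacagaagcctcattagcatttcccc
ELOVL6: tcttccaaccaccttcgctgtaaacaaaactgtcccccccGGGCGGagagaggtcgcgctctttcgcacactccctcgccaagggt
FADS1: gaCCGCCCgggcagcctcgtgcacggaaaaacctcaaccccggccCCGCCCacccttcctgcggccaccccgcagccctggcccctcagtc

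In the 250 bases before the start, the sterol regulatory element spelled TCACNCCAC was found in 1 of the 28 promoters (3.57%) and in 0.889% of all 14514 promoters. Its shorter core CACNCCAC, which lies within the longer motif, was in 3 of 28 (SREBF2, INSIG1 and SCD) and in 4.88% of all. CCAAT was in 18 of 28 (64.3%) and in 34.5% of all, with 5 copies each in MVK and NSDHL. The GC box GGGCGG was in 26 of 28 (92.9%) and in 57.1% of all. A C/EBP site spelled TTGCNNAA was in 2 of 28 (7.14%), those of NSDHL and SCAP, and in 7.17% of all promoters. All 5 motifs were searched on both strands, and these matches are letters in a window and describe no binding.

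The level of each gene in each library gives the first view of the set. The C13* shCEBPB group had the highest mean of 16 genes and the lowest of 9, and A2780 had the highest of 6 and the lowest of 14. A2780 OlaR and C13* shCON were neighbours in the order of the 4 groups for 30 of the 32 genes, and their libraries overlapped for 23. The spread between libraries of a group was small, with a median coefficient of variation of 7.14% in A2780, 8.69% in A2780 OlaR, 6.03% in C13* shCON and 10.9% in C13* shCEBPB. The 2 largest were those of ELOVL6 (41.3%) and TM7SF2 (36.3%) in C13* shCEBPB, where both genes were close to 1 FPKM or below.

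**Figure D1:**
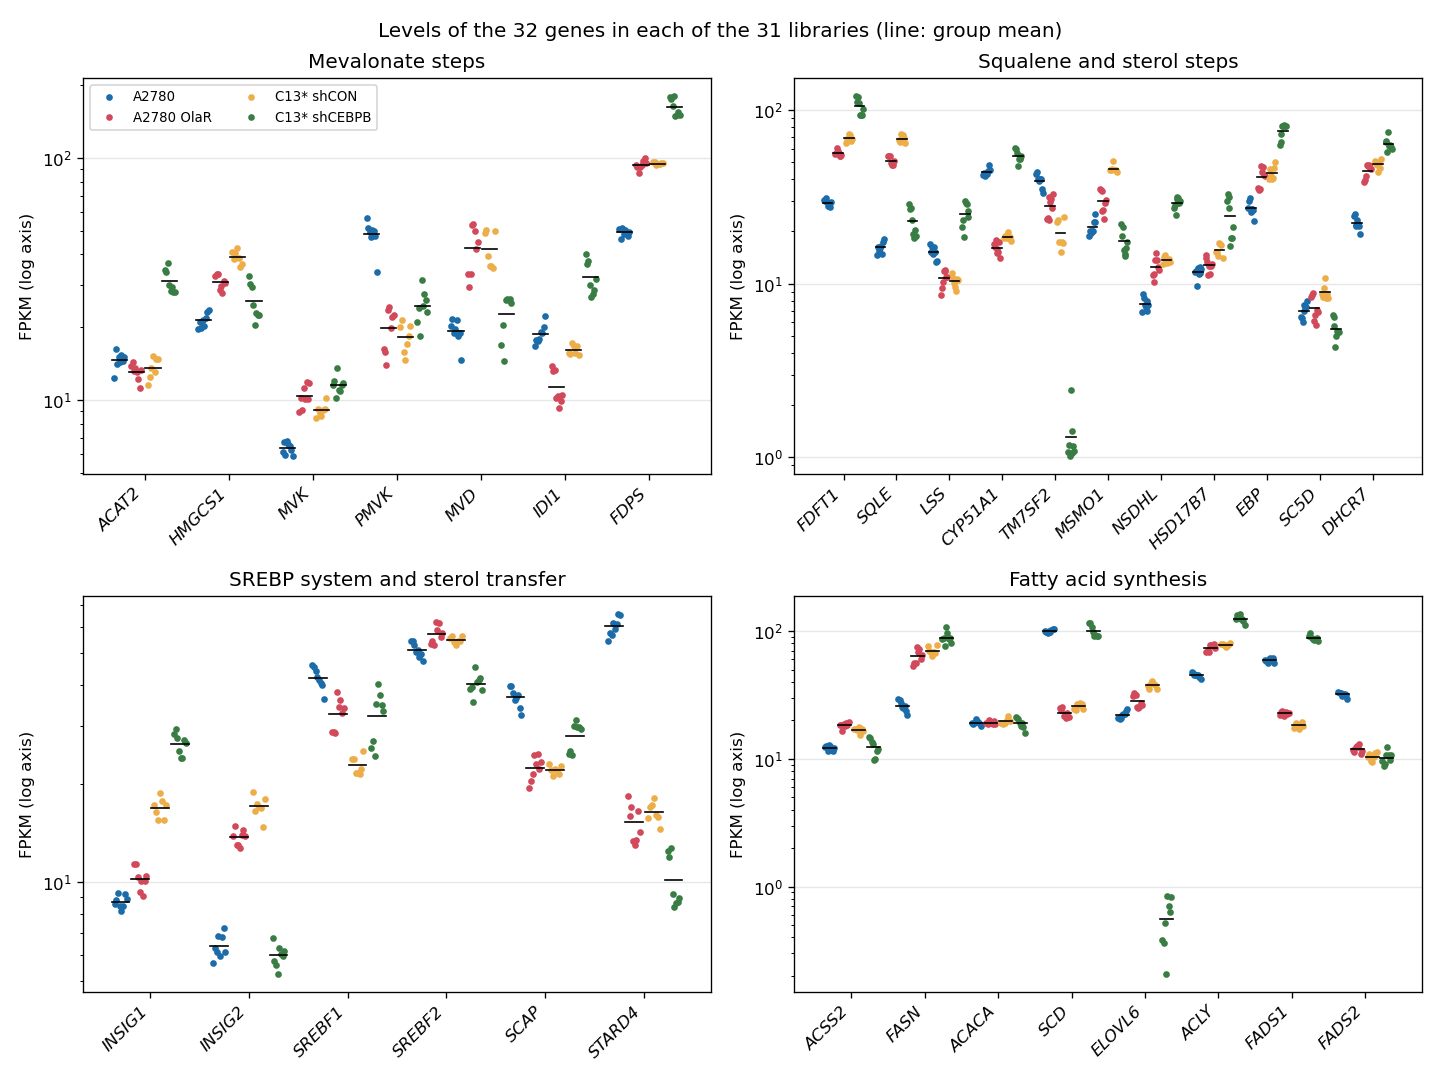
FPKM (log axis) of the 32 genes in each of the 31 libraries, 1 point per library and a line at each group mean, in 4 panels by role. ELOVL6 and TM7SF2 fall far below all other points in C13* shCEBPB, SCD is near 100 FPKM in both A2780 and C13* shCEBPB, and ACACA is level over all 4 groups.

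Differences between groups were tested on log2(FPKM + 1) with limma and Benjamini-Hochberg adjustment over all genes tested, and a gene was called at an adjusted p under 0.05. A stricter call also asked a fold change of at least 2. The log2 fold changes printed, with the standard error (SE) of the fit, are set against the median change over all tested genes, which lay at -0.12 in A2780 OlaR against A2780 and at -0.07 in C13* shCEBPB against C13* shCON, while the calls and adjusted p-values are those before this shift. The scale understates changes of genes near 1 FPKM.

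A2780 OlaR was set against A2780 to ask how the olaparib-resistant strain differs from its parent. SQLE, FASN and MVD rose by at least 2-fold in A2780 OlaR, while SCD, STARD4, CYP51A1, FADS1, FADS2 and PMVK fell by at least 2-fold. At an adjusted p under 0.05, 18 of the 32 genes were higher and 12 lower, and ACACA and SC5D did not pass. This is 93.75% of the set, beside 89.8% of all 12458 genes tested (40.1% higher and 49.7% lower). The 2-fold calls took in 9 of 32 genes (28.1%), beside 35.7% of all genes tested; 3 were higher, beside 15.5%, and 6 lower, beside 20.1%, and 24 of 32 genes had no overlap between libraries of the groups, beside 74.1%. The count of 2-fold rises depended on the scaling: with the median log2 ratio set to 0, FDPS, FDFT1, DHCR7 and INSIG2 passed as well, which made 7 of 32 (21.9%), beside 17.6% of all genes. The median relative log2 fold change of the 32 genes was 0.30.

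**Figure D2:**
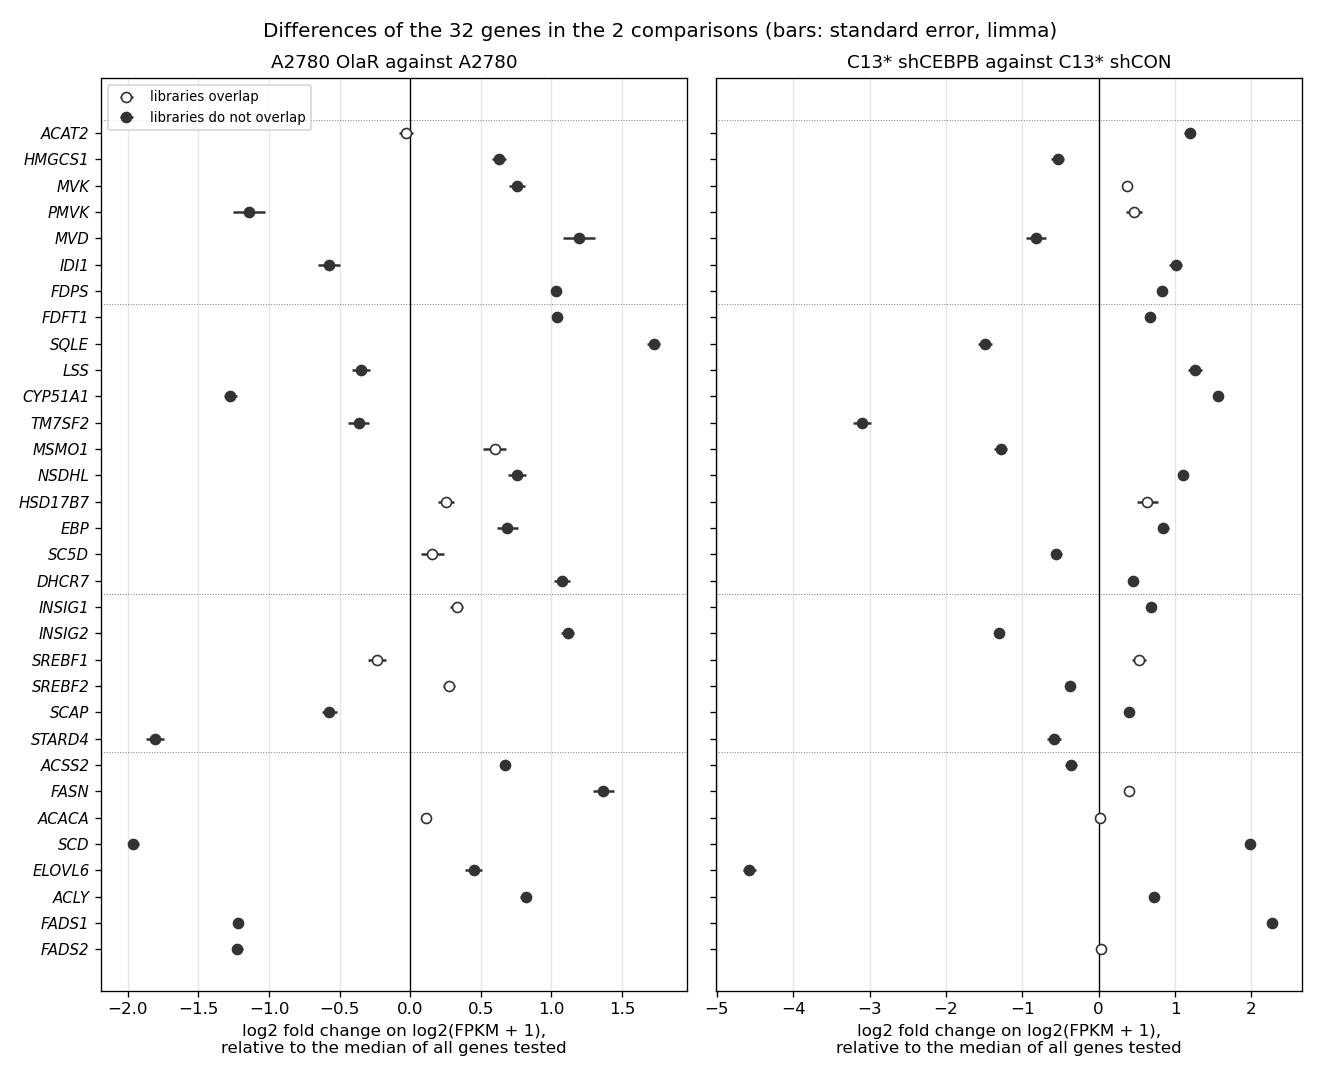
Log2 fold change on log2(FPKM + 1) set against the median over all tested genes, with the SE from limma as bars, for A2780 OlaR against A2780 and for C13* shCEBPB against C13* shCON. Filled points mark genes whose libraries do not overlap, dotted lines separate the roles, and the axes of the panels differ. SCD, CYP51A1 and FADS1 lie left of 0 on one side and right of 0 on the other, SQLE the reverse, and ELOVL6 reaches -4.58 in the C13* comparison.

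Of the 7 mevalonate genes, 4 rose (HMGCS1, MVK, MVD and FDPS) and 3 fell (PMVK, IDI1 and ACAT2). MVD, which decarboxylates mevalonate diphosphate, ranged from 14.7 to 21.7 FPKM in A2780 (median 19.4) and from 29.4 to 53.4 FPKM in A2780 OlaR (median 43.6). The groups did not overlap, at a relative log2 fold change of 1.2 (SE 0.12, limma adjusted p = 4.53e-08). Within A2780 OlaR the MVD mean was 31.9 FPKM in libraries numbered 1 to 3 and 48.7 FPKM in those numbered 4 to 8, so its level moved with the library number as well. PMVK, the kinase of the preceding step, went the other way and ranged from 33.9 to 56.8 FPKM in A2780 (median 49.8) and from 14.0 to 24.3 FPKM in A2780 OlaR (median 21.0), a relative log2 fold change of -1.14 (SE 0.11, limma adjusted p = 2.95e-09). Consecutive enzymes of this short route therefore moved in opposite directions. Within A2780 OlaR, PMVK averaged 15.3 FPKM in libraries 1 to 3 and 22.5 FPKM in libraries 4 to 8. Other genes of the set differed at this cut too, in either direction. EBP averaged 35.1 and 44.6 FPKM and IDI1 13.4 and 10.0 FPKM, while ACACA was level at 19.3 and 19.1 FPKM. FDPS, which makes farnesyl diphosphate, averaged 49.4 ± 1.75 FPKM in A2780 and 93.9 ± 3.85 in A2780 OlaR (SD, n = 8 each; relative log2 fold change 1.03). HMGCS1, which makes HMG-CoA, averaged 21.4 against 30.8 FPKM, and MVK, the first kinase of the route, 6.32 against 10.4 FPKM. IDI1, the isomerase, fell from 18.8 to 11.3 FPKM. ACAT2, the thiolase that starts the route, fell from 14.6 to 13.1 FPKM, with overlapping libraries and a relative log2 fold change of -0.03. Its call was lost with quantile normalization, with the median ratio set to 0, within libraries 1 to 3 and at an adjusted p under 0.01.

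Squalene and sterol steps followed the same mixed pattern, with 7 of 11 genes higher, 3 lower (CYP51A1, LSS and TM7SF2) and SC5D not passing. SQLE, the epoxidase that is a rate-limiting step of the pathway, had the largest rise of the set. It ranged from 14.7 to 18.1 FPKM in A2780 (median 16.2) and from 48.1 to 54.2 FPKM in A2780 OlaR (median 50.5), so that even the lowest resistant library stood far above the highest parent library. Its mean was 3.16 times as high (relative log2 fold change 1.72, SE 0.04, limma adjusted p = 1.53e-17). FDFT1, the squalene synthase just before it, was 1.93 times as high, at 56.5 ± 2.14 FPKM against 29.3 ± 1.21 (SD, n = 8 each). DHCR7, which reduces 7-dehydrocholesterol, was 1.98 times as high, at 44.4 against 22.4 FPKM. CYP51A1, the lanosterol demethylase in the middle of the route, fell: it ranged from 41.7 to 48.5 FPKM in A2780 (median 43.2) and from 14.1 to 17.9 FPKM in A2780 OlaR (median 16.0), a relative log2 fold change of -1.28 (SE 0.05, limma adjusted p = 2.18e-16). No library of either group came near the other. LSS, the cyclase that makes lanosterol, fell from 15.2 to 10.7 FPKM, and TM7SF2, a sterol C14 reductase, from 39.2 to 27.9 FPKM. The remaining rises were those of NSDHL, a dehydrogenase that helps to remove methyl groups (7.64 to 12.5 FPKM), EBP, an isomerase (27.3 to 41.1), MSMO1, a methyl oxidase (21.2 to 30.1) and HSD17B7, a ketoreductase (11.6 to 12.9), the last with overlapping libraries and an adjusted p of 0.0302 from limma. SC5D, a sterol desaturase, averaged 7.01 and 7.27 FPKM (adjusted p = 0.643), but its uncentred log2 difference was 0.40 within libraries 1 to 3 (limma adjusted p = 2.66e-05) and -0.18 within libraries 4 to 8 (limma adjusted p = 0.00674). With quantile normalization SC5D was called higher (log2 difference 0.19, limma adjusted p = 0.0183). HSD17B7 was not called within libraries 4 to 8 alone (log2 difference 0.024), with FPKM scaled to a common sum (0.068, limma adjusted p = 0.293) or in 1 fit of all 4 groups (0.13, limma adjusted p = 0.222).

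Among the 6 genes of the SREBP system, 3 were higher and 3 lower. SREBF2, the gene of the SREBP form that mainly drives cholesterol synthesis, and SREBF1, the gene of the form that mainly drives fatty acid synthesis, moved slightly and apart. SREBF2 averaged 51.2 FPKM in A2780 and 57.2 in A2780 OlaR, while SREBF1 averaged 42.0 and 32.7, and for both genes some libraries of one group lay within the range of the other. Within libraries 1 to 3 the log2 difference of SREBF2 was -0.013. INSIG2, a retention protein, was 2.15 times as high in A2780 OlaR and ranged from 5.67 to 7.24 FPKM in A2780 (median 6.20) and from 12.7 to 14.9 FPKM in A2780 OlaR (median 13.9). Its uncentred log2 difference lay just under the 2-fold line, and its relative log2 fold change was 1.12 (SE 0.05, limma adjusted p = 8.13e-14). INSIG1, a well-known SREBP target, rose less, from 8.72 to 10.3 FPKM, so that the ratio of INSIG1 to INSIG2 was 1.37 ± 0.116 in A2780 and 0.748 ± 0.0577 in A2780 OlaR (SD, n = 8 each). SCAP, the escort protein, fell from 36.7 to 22.3 FPKM. STARD4, which carries cholesterol between membranes, ranged from 54.7 to 65.8 FPKM in A2780 (median 60.4) and from 13 to 18.3 FPKM in A2780 OlaR (median 15.1), the largest fall of the sterol genes (relative log2 fold change -1.81, SE 0.07, limma adjusted p = 4.03e-16).

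Of the 8 fatty acid genes, 4 were higher, the 3 desaturases were lower and ACACA did not pass. ACLY, which makes cytosolic acetyl-CoA from citrate, ACSS2, which makes it from acetate, FASN, the fatty acid synthase, and ELOVL6, the elongase of palmitate, were higher. FASN ranged from 22.2 to 29.5 FPKM in A2780 (median 25.8) and from 53.6 to 75.3 FPKM in A2780 OlaR (median 62.5), a relative log2 fold change of 1.37 (SE 0.07, limma adjusted p = 2.67e-12). ACLY was 1.64 times as high, at 74.0 against 45.2 FPKM, ACSS2 1.5 times, at 18.3 against 12.2 FPKM, and ELOVL6 1.27 times, at 28.2 against 22.1 FPKM. SCD, the desaturase that makes oleate and palmitoleate, was the gene with the largest fall. It ranged from 96.0 to 103 FPKM in A2780 (median 100.4) and from 20.9 to 25.5 FPKM in A2780 OlaR (median 22.7), a relative log2 fold change of -1.96 (SE 0.04, limma adjusted p = 4.4e-20). FADS1 and FADS2, the desaturases of polyunsaturated fatty acids, fell alike, from 58.9 to 22.7 and from 31.9 to 12 FPKM, and their ratio was 1.85 ± 0.0882 in A2780 and 1.90 ± 0.134 in A2780 OlaR (SD, n = 8 each). ACACA, the carboxylase that makes malonyl-CoA, averaged 19.2 FPKM in both groups (adjusted p = 0.876). The sign of its small difference changed with the scaling, and with the median ratio set to 0 it was called higher (log2 fold change 0.11, limma adjusted p = 0.00159).

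C13* shCEBPB was set against C13* shCON to ask what differs in C13* cells with the shRNA against CEBPB. ELOVL6 and TM7SF2 dropped to near 1 FPKM or below in C13* shCEBPB, SQLE, MSMO1 and INSIG2 fell by at least 2-fold, and FADS1, SCD, CYP51A1, LSS, ACAT2 and NSDHL rose by at least 2-fold. In all, 19 of the 32 genes were higher and 11 lower, and ACACA and FADS2 did not pass. That share, 93.75%, stands beside 84.7% of all 12006 genes tested (38.9% higher and 45.7% lower). By at least 2-fold 6 were higher, beside 12.7% of all genes tested, and 5 lower, beside 16.7%, which makes 11 of 32 (34.4%), beside 29.5%. There were 25 of 32 genes with no overlap between libraries, beside 66%, and the median relative log2 fold change was 0.42.

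In the mevalonate steps 5 of 7 genes were higher in C13* shCEBPB and 2, HMGCS1 and MVD, lower. ACAT2 ranged from 11.6 to 15.2 FPKM in C13* shCON (median 13.6) and from 27.9 to 36.8 FPKM in C13* shCEBPB (median 29.6). Every knockdown library was above every control library, at a relative log2 fold change of 1.2 (SE 0.07, limma adjusted p = 5.49e-11). IDI1 averaged 16.1 ± 0.729 FPKM (SD, n = 7) in C13* shCON and 32.3 ± 5.12 (SD, n = 8) in C13* shCEBPB, and FDPS, the most abundant gene of these steps, averaged 95.0 ± 1.07 and 163 ± 13.3 FPKM. MVK rose from 9.09 to 11.6 FPKM and PMVK from 18.2 to 24.5 FPKM, both with overlapping libraries, and PMVK was not called within libraries 1 to 3 alone (log2 difference 0.14, limma adjusted p = 0.319). HMGCS1 fell from 39.0 to 25.6 FPKM and MVD from 42.2 to 22.6 FPKM. Within C13* shCEBPB, HMGCS1 averaged 30.6 FPKM in libraries 1 to 3 and 22.6 FPKM in libraries 4 to 8, while MVD averaged 17.3 and 25.9 FPKM in the same libraries, so the same split ran in opposite directions in these genes.

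All 11 squalene and sterol genes were called, 7 higher and 4 lower, and neighbouring steps again went apart. FDFT1 rose from 68.7 ± 2.74 FPKM (SD, n = 7) to 105 ± 11.3 FPKM (SD, n = 8), while SQLE, the next enzyme, ranged from 64.7 to 73.2 FPKM in C13* shCON (median 66.8) and only from 18.3 to 28.7 FPKM in C13* shCEBPB (median 21.8), a relative log2 fold change of -1.49 (SE 0.09, limma adjusted p = 1.96e-11). LSS, the step after SQLE, rose from a median of 10.5 FPKM (9.04 to 11.6) to a median of 25.2 FPKM (18.6 to 29.8). CYP51A1 then rose from a median of 18.4 FPKM (17.7 to 19.8) to a median of 53.5 FPKM (47.5 to 60.5), a relative log2 fold change of 1.57 (SE 0.05, limma adjusted p = 2.42e-15).

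TM7SF2, which takes the step after CYP51A1, fell furthest of the sterol genes. It ranged from 15.3 to 24.1 FPKM in C13* shCON (median 17.5) and from 1.02 to 2.44 FPKM in C13* shCEBPB (median 1.13), and its mean there was 6.65% of the C13* shCON mean (relative log2 fold change -3.10, SE 0.12, limma adjusted p = 2.01e-14). LBR, the lamin B receptor, is known to carry the same reductase activity, and it averaged 30.5 FPKM in C13* shCON and 26.6 FPKM in C13* shCEBPB. Its C13* shCEBPB libraries ranged from 19.5 to 36.9 FPKM and overlapped with those of C13* shCON (27.8 to 32.9 FPKM). Within C13* shCEBPB, LBR averaged 35.1 FPKM in libraries 1 to 3 and 21.5 FPKM in libraries 4 to 8. The ratio of TM7SF2 to LBR was 1.61 ± 0.223 in A2780, 0.910 ± 0.236 in A2780 OlaR, 0.646 ± 0.132 in C13* shCON and 0.0523 ± 0.0210 in C13* shCEBPB. Of the 4 group means of this ratio, only that of A2780 was above 1, while single A2780 OlaR libraries ranged from 0.637 to 1.21. MSMO1, which acts further on, fell from 45.8 to 17.6 FPKM with no overlap, while NSDHL, which acts with it, rose from 13.7 to 29.2 FPKM. EBP (43.6 to 75.8 FPKM), DHCR7 (48.6 to 63.8) and HSD17B7 (15.7 to 24.5) rose too, and SC5D fell from 8.96 to 5.49 FPKM. HSD17B7 averaged 31.5 FPKM in C13* shCEBPB libraries 1 to 3 and 20.3 FPKM in libraries 4 to 8, and its libraries overlapped with those of C13* shCON.

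In the SREBP system 3 genes rose and 3 fell. The pair of retention proteins moved apart: INSIG1 ranged from 15.5 to 18.7 FPKM in C13* shCON (median 17.2) and from 23.9 to 29.3 FPKM in C13* shCEBPB (median 26.8), and INSIG2 from 14.7 to 18.9 (median 17.0) and from 5.24 to 6.75 FPKM (median 6.0). Neither gene's libraries overlapped between the groups, and the ratio of INSIG1 to INSIG2 was 0.993 ± 0.0765 (SD, n = 7) in C13* shCON and 4.46 ± 0.468 (SD, n = 8) in C13* shCEBPB. SREBF2 fell from 55.0 to 40.3 FPKM (relative log2 fold change -0.38, SE 0.04, limma adjusted p = 3.7e-08), and SREBF1 rose from 22.7 to 32.2 FPKM (0.53, SE 0.10, limma adjusted p = 0.000219) with overlapping libraries. In C13* shCEBPB, SREBF1 averaged 25.6 FPKM in libraries 1 to 3 and 36.1 FPKM in libraries 4 to 8, and it was not called within libraries 1 to 3 alone (log2 difference 0.15, limma adjusted p = 0.0569). SCAP rose from 22.0 to 28 FPKM, and STARD4 fell from 16.3 to 10.1 FPKM.

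The fatty acid genes held the widest differences. ELOVL6 ranged from 35 to 40.8 FPKM in C13* shCON (median 37.6) and from 0.208 to 0.846 FPKM in C13* shCEBPB (median 0.578). Its mean there was 1.49% of the C13* shCON mean, and no library of the other 3 groups was under 20.7 FPKM (relative log2 fold change -4.58, SE 0.08, limma adjusted p = 3.41e-19). SCD, which desaturates palmitate and stearate, the substrate and the product of elongation by ELOVL6, went the other way, from a median of 26.6 FPKM (24.1 to 27.3) to a median of 95.9 FPKM (90.9 to 116). FADS1 rose most of all 32 genes, from a median of 18.2 FPKM (17.2 to 19.5) to a median of 87.5 FPKM (83.5 to 96.1), a relative log2 fold change of 2.28 (SE 0.04, limma adjusted p = 3.17e-19). FADS2 did not follow it, at 10.4 FPKM in C13* shCON and 10.2 FPKM in C13* shCEBPB (adjusted p = 0.688). ACLY rose from 78.4 to 125 FPKM and FASN from 70.3 to 88.7 FPKM, the latter with overlapping libraries. ACSS2 fell from 16.8 to 12.4 FPKM, and ACACA averaged 19.7 and 19.0 FPKM (adjusted p = 0.385). Within libraries 4 to 8 ACACA was called lower (log2 difference -0.16, limma adjusted p = 0.0216), while within libraries 1 to 3 its difference was 0.12 (limma adjusted p = 0.0597).

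Ratios of genes with related roles show how their balance differed between groups. SCD to ELOVL6 stood at 4.54 ± 0.205 in A2780, 0.819 ± 0.0473 in A2780 OlaR, 0.689 ± 0.0248 in C13* shCON and 225 ± 131 in C13* shCEBPB, where the spread is that of ELOVL6 near its lowest values (108 to 474 over the 8 libraries). FADS1 and FADS2 lie on opposite strands of chromosome 11. Their RefSeq starts, at 61817003 (minus strand) and 61816203 (plus strand), are 800 bp apart, and each start lies within the other gene. Their ratio was near 2 to 1 in A2780 (1.85), A2780 OlaR (1.90) and C13* shCON (1.76 ± 0.101, SD, n = 7), and 8.75 ± 1.28 (SD, n = 8) in C13* shCEBPB. The ratio of SREBF1 to SREBF2 was 0.820 in A2780, 0.570 in A2780 OlaR, 0.413 in C13* shCON and 0.797 in C13* shCEBPB.

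**Figure D3:**
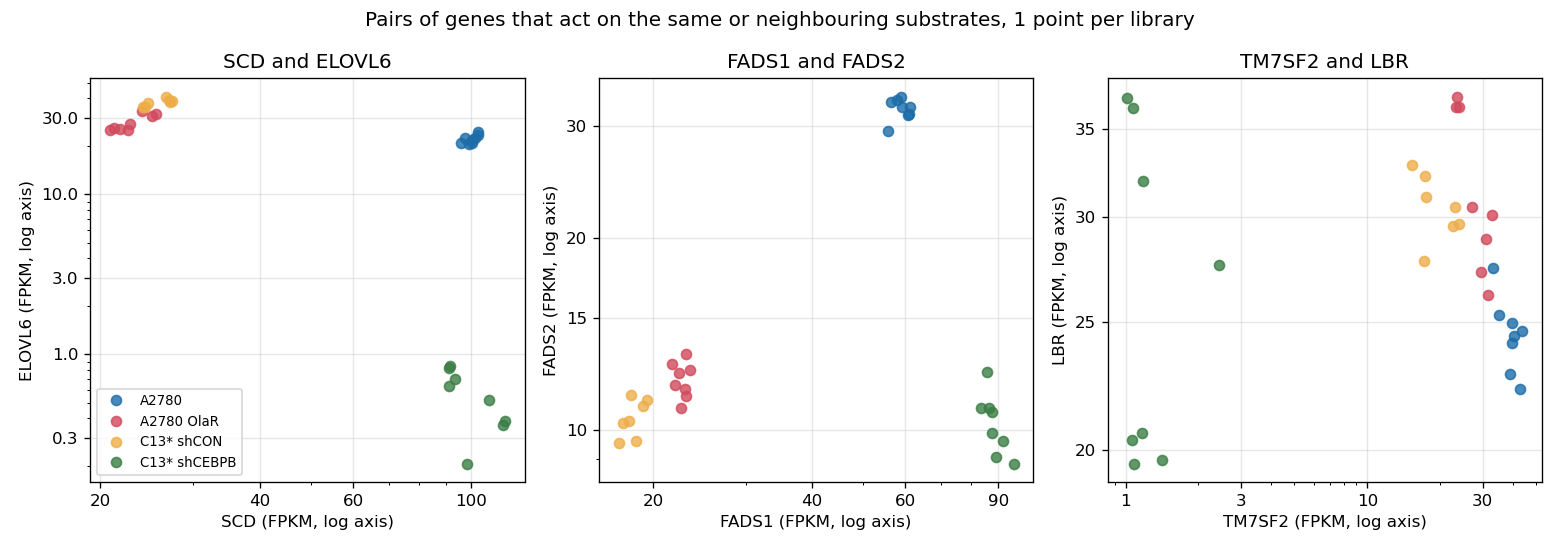
FPKM of SCD against ELOVL6, FADS1 against FADS2, and TM7SF2 against LBR (log axes), 1 point per library, coloured by group. A2780 OlaR and C13* shCON lie near each other in each panel, C13* shCEBPB has SCD at the level of A2780 with ELOVL6 under 1 FPKM, and its FADS1 is the highest of the groups while its FADS2 stays with A2780 OlaR and C13* shCON.

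The 2 comparisons share no library. Of the 32 genes, 10 were higher in both, 8 were higher in A2780 OlaR and lower in C13* shCEBPB, 9 were lower in A2780 OlaR and higher in C13* shCEBPB, and 2 (TM7SF2 and STARD4) were lower in both. Over the 11603 genes tested in both comparisons these shares were 10.6%, 26.1%, 23% and 15.9%, so that 17 of the 32 genes (53.1%) had opposite signs, beside 49.2% of all. At 2-fold or more, SCD, CYP51A1 and FADS1 were lower in A2780 OlaR and higher in C13* shCEBPB, and SQLE was the reverse, which is 4 of 32 (12.5%), beside 12.5% of all. A2780 OlaR and C13* shCON, which had nearly the same profile, stand on opposite sides of these comparisons, so the labelled conditions and that profile cannot be told apart in the opposite signs.

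Direct comparison of C13* shCON with A2780 OlaR called 18 of the 32 genes (12 higher and 6 lower), beside 42.2% of all 11547 genes tested (22.9% higher and 19.3% lower), and 0 reached 2-fold, beside 0.589%. Taken by library number, 3 genes were called lower within libraries 1 to 3 (9.38%, beside 23.2% of all genes) and 10 within libraries 4 to 8 (31.2%, beside 25.4%). For 9 of 32 the libraries of these groups were apart, beside 16.6%. The largest differences were those of INSIG1 (16.9 against 10.3 FPKM, relative log2 fold change 0.65, SE 0.05, limma adjusted p = 1.98e-08), MSMO1 (45.8 against 30.1 FPKM, 0.59) and SREBF1 (22.7 against 32.7 FPKM, -0.52), and these did not overlap. For the other pair of labelled lines, C13* shCEBPB against A2780, 27 of 32 genes were called, 17 higher and 10 lower, beside 88.9% of all 12234 genes tested (37.4% higher and 51.5% lower), and 13 reached 2-fold, beside 38.5%. SCD, ACSS2, ACACA, INSIG2 and MVD did not pass there. SCD averaged 100.3 FPKM in A2780 and 100.5 FPKM in C13* shCEBPB (adjusted p = 0.956).

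Sums over roles give a coarser view of the same levels. The 32 genes together made 940 ± 17.6 FPKM in A2780, 945 ± 29.5 in A2780 OlaR, 1022 ± 15.5 in C13* shCON and 1324 ± 60.3 in C13* shCEBPB. The 11 squalene and sterol genes summed to 241 ± 4.77 FPKM in A2780, 311 ± 5.77 in A2780 OlaR, 362 ± 3.41 in C13* shCON and 425 ± 19.4 in C13* shCEBPB, and no libraries overlapped between groups. The mevalonate genes summed to 178, 222, 233 and 311 FPKM in the same order. FDPS alone made up 49.4, 93.9, 95.0 and 163 FPKM of these means. It rose along with the sum from A2780 to A2780 OlaR, where MVD rose and PMVK fell, and from C13* shCON to C13* shCEBPB. Between A2780 OlaR and C13* shCON FDPS was nearly level, while HMGCS1 averaged 30.8 and 39.0 FPKM. The SREBP system was highest in A2780, at 205 ± 4.80 FPKM, against 143 to 151 FPKM in the other groups, where STARD4 alone made up 60.4 FPKM of the A2780 mean. The fatty acid genes were lowest in A2780 OlaR, at 261 ± 7.60 FPKM, and highest in C13* shCEBPB, at 445 ± 24.7 FPKM.

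**Figure D4:**
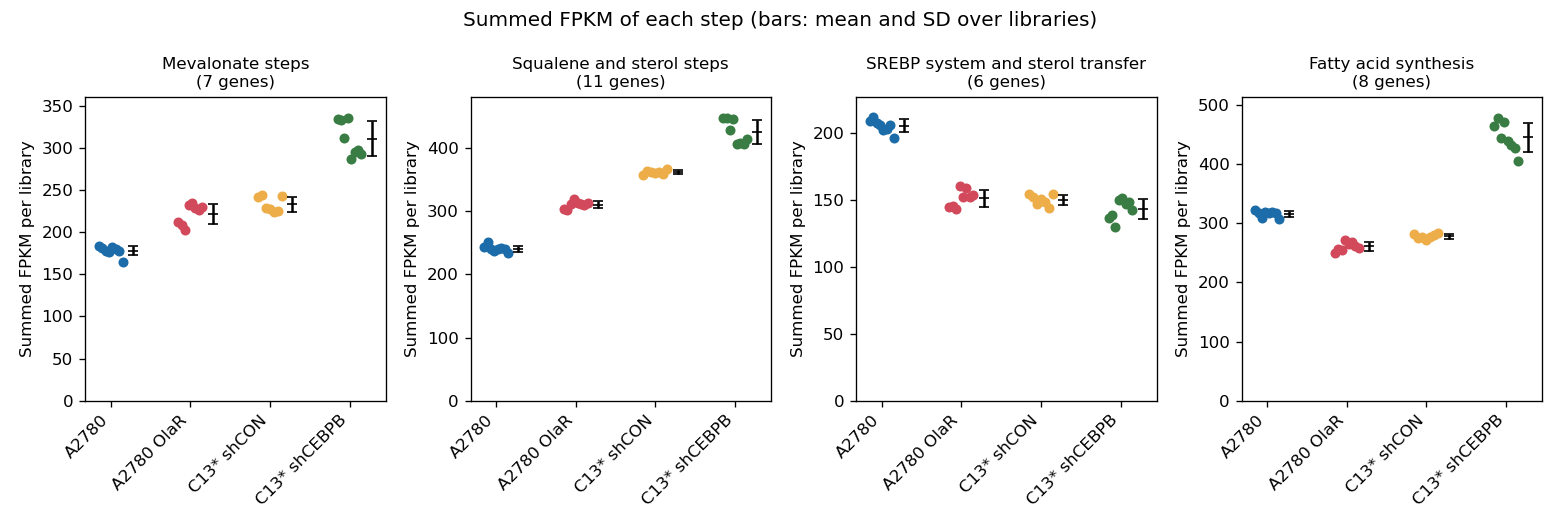
Summed FPKM per library of the genes of each role, 1 point per library with the mean and SD beside them, on axes that start at 0. The mevalonate and the sterol sums are lowest in A2780 and highest in C13* shCEBPB, and the SREBP system is highest in A2780.

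Outside these 32 genes, a list of 36 further genes of lipid metabolism (SREBP proteases, sterol transport, acyl-CoA synthetases, elongases, storage and the LXR receptors) gave 34 tested genes in both comparisons. In A2780 OlaR 11 were higher and 18 lower, which is 85.3% of those tested, beside 89.8% of all genes. By at least 2-fold 13 (38.2%) were called, beside 35.7%, and the median relative log2 fold change was -0.08. In C13* shCEBPB 13 were higher and 16 lower (85.3%, beside 84.7%), also 13 by at least 2-fold (38.2%, beside 29.5%), with a median of -0.07. PLIN2, a coat protein of lipid droplets, averaged 23.1 FPKM in A2780, 0.0895 in A2780 OlaR, 0.576 in C13* shCON and 12.5 in C13* shCEBPB. SOAT1, which esterifies cholesterol for storage, was likewise higher in A2780 and C13* shCEBPB than in the other 2 groups, at 29.8, 7.83, 7.97 and 39.7 FPKM, and so was ACACB, the mitochondrial counterpart of ACACA, at 3.71, 0.602, 0.475 and 3.28 FPKM. DGAT2, which makes triglyceride, was high in A2780 only among the 4 groups (19.1 FPKM, against 1.65, 2.49 and 2.85). ACSL1, an acyl-CoA synthetase, was lowest in C13* shCEBPB (1.27 FPKM, against 24.9, 12.6 and 10.6). NR1H3, the sterol-sensing receptor LXRα, averaged 3.11, 7.98, 5.99 and 23.1 FPKM, and ABCG1, a known target of it that exports cholesterol, averaged 1.22, 3.60, 3.25 and 0.130 FPKM. SCD5, the other human stearoyl-CoA desaturase, averaged 20.9, 21.8, 22.6 and 8.75 FPKM, so the ratio of SCD to SCD5 was 4.79 in A2780, 1.06 in A2780 OlaR, 1.14 in C13* shCON and 11.7 in C13* shCEBPB. The other 2-fold calls in A2780 OlaR against A2780 were falls of NPC1, a cholesterol transporter of lysosomes (22.3 to 9.67 FPKM), ACAT1, the mitochondrial thiolase (61.7 to 29.6), ELOVL1, an elongase of very long chains (105 to 49.0), and LPIN1, a phosphatidate phosphatase (11.8 to 3.78), and rises of FADS3 (22.2 to 57.0 FPKM), ACSL5 (0.0534 to 2.77) and MYLIP (1.46 to 4.02). In C13* shCEBPB against C13* shCON they were rises of ACAT1 (33.8 to 96.7 FPKM), SLC25A1, the mitochondrial citrate carrier (55.6 to 138), and AGPAT2, an acyltransferase (24.1 to 75.6), and falls of ME1, which makes NADPH (31.1 to 11.6 FPKM), ELOVL7 (7.77 to 1.61) and MYLIP (3.06 to 0.944).

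Some of these levels can hold reads of other genes, since the use of strand in counting is not given in the sources used here. In GENCODE 44, CYP51A1 shares 2844 and 2827 exonic bp with 2 annotated genes on its own strand, EBP shares 644 bp with another, HMGCS1 overlaps an antisense RNA over 2497 bp, and FADS1 and FADS2 overlap each other over 490 bp on opposite strands. On the opposite strand, ACAT2 shares 454 exonic bp with TCP1, 133 bp with SOD2 and 98 bp with SOD2-OT1. FDPS shares 693 bp and IDI1 643 bp with RNAs of the opposite strand, and further genes of the set have overlaps too. Named pseudogenes exist for FDPS (8), IDI1 (3), CYP51A1 (3), HSD17B7 (2) and SCD (1).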

How the data were processed

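The authors sequenced mRNA as 150-bp paired-end reads, and per the labels and the study's methods mapped them to hg38 with TopHat and counted them with HTSeq; the tool and annotation behind the deposited FPKM are not given in the sources used here. The deposited table held 19225 entries, of which 4 with a repeated symbol were left out. FPKM give no read totals, so absolute depth is unknown; low values rose in steps, 77.7% of them at most 0.1 from a whole multiple (20% by chance), which gave relative depths of 0.865 to 1.21. FPKM summed to 417556 to 454578 per library.

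Genes were tested if the number of libraries with FPKM of 1 or more was no less than the size of the smaller group. Tests ran on log2(FPKM + 1), each comparison on its own libraries, with limma 3.58.1 in R 4.3.3 (lmFit, eBayes with trend, two-sided, Benjamini-Hochberg). On simulated data for A2780 OlaR against A2780 (12458 genes) it recovered 196 of 200 changed genes, with 7.11% of its calls false. For the C13* comparison (12006 genes) it recovered 199 of 200, with 4.33% false. In the deposited data it called 89.8% of genes in A2780 OlaR against A2780 and 84.7% in the C13* comparison. Whether the recovery and false-call rates hold at such shares was not tested. One C13* shCON library (replicate 1) has A2780 in its cell line field and was kept by its title. The members, lists and tests were chosen with earlier results of these data known. All 32 members were accounted for; in each role those with the largest change, those against the majority and those not passing were named, and, of the other lists, the pathway genes past the 2-fold call and markers used to check the labels, KRT8, KRT18, VIM, FN1 and CDH2 after their values were seen. Library code numbers 1 to 3 and 4 to 8 were analysed apart. The sample titles and the study's methods name no batch at this cut. Replicate numbers did not pair the libraries (mean correlation of same-numbered deviations -0.23 and -0.15). The alternatives were other pseudocounts, filters, scalings, an exact permutation test, 1 fit of all groups, a replicate block and leaving out each library. Positions are from GENCODE 44, and promoters from RefSeq on GRCh38.p14 (28 of 32 genes matched). Tables and plots were made with Python 3.11.15, pandas 2.3.3, numpy 2.4.6 and matplotlib 3.10.9.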

Additional observations from a re-analysis of the deposited data

Results flagged for a closer look

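In 5 of the 128 combinations of a gene and a group, 1 library stood apart from the others of its group by Dixon's criterion, which chance alone meets in about 1 of 20. TM7SF2 was 2.44 FPKM in C13* shCEBPB replicate 4 and 1.02 to 1.42 FPKM in the other libraries of that group, all of them far under the lowest C13* shCON library. PMVK was 33.9 FPKM in A2780 replicate 8 and 47.4 to 56.8 FPKM in the others, and HSD17B7 was 9.76 FPKM in A2780 replicate 3 and 11.3 to 12.4 FPKM in the others. MVK was 10.2 FPKM in C13* shCON replicate 7 (others 8.43 to 9.21 FPKM), and MSMO1 was 50.7 FPKM in C13* shCON replicate 4 (others 43.8 to 46.0 FPKM).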

How the results depend on the processing

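In A2780 OlaR against A2780, 367 of 384 values (32 genes under 12 other settings) kept their direction and their side of the threshold, and in C13* shCEBPB against C13* shCON 376 of 384. With the median log2 ratio set to 0, 7 genes (21.9%, beside 17.6% of all genes) in place of 3 (9.38%, beside 15.5%) were at least 2-fold higher in A2780 OlaR. Small differences changed sign: in A2780 OlaR against A2780, SC5D to -0.022 (common sum) and -0.18 (libraries 4 to 8), SREBF2 to -0.013 (libraries 1 to 3), and ACACA to 0.077 (quantile normalization), 0.11 (median set to 0), 0.024 (libraries 1 to 3) and between -0.016 and 0.0073 with 1 library left out, above 0 without A2780 OlaR replicate 2 (0.00021) or 8 (0.00023) or A2780 replicate 4. In the C13* comparison they were FADS2 to 0.059 (quantile normalization), 0.049 (median set to 0) and 0.039 (libraries 4 to 8), and ACACA to 0.024 (median set to 0) and 0.12 (libraries 1 to 3). The cause was not tested. With 1 library left out at a time, 29 to 30 genes were called in A2780 OlaR against A2780 and 30 in the C13* comparison. Replicate numbers did not pair the libraries; with the replicate number as a block, 29 and 30 genes were called, HSD17B7 losing its call in A2780 OlaR against A2780, and 14 in place of 18 in C13* shCON against A2780 OlaR, beside 29.7% in place of 42.2% of all genes. HSD17B7 also lost its call without A2780 OlaR replicate 1 or 2 or A2780 replicate 3. FPKM give no counting error, so the precision of ELOVL6 and TM7SF2 in C13* shCEBPB, at 0.208 to 2.44 FPKM, is known only from the spread between libraries.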
